A study of Mus musculus with 10 samples.

Results

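The 10 genes described here encode antioxidant enzymes: the superoxide dismutases Sod1, Sod2 and Sod3, catalase (Cat), the glutathione peroxidases Gpx1, Gpx3 and Gpx4, and the peroxiredoxins Prdx1, Prdx2 and Prdx5. They were chosen by name, with earlier results of these data known. A promoter window was taken where its centre lay within 200 bp of an annotated start of such a gene. This gave 19 windows, at least 1 for each of the 10 genes, among 40537 nuclear windows listed for all groups. A window is 2000 bp long, 1000 bp on each side of a transcript start. DNA methylation was measured by low-input bisulfite sequencing of mouse MII oocytes, eggs arrested in the second meiotic metaphase, of strain C57BL6/129. The groups were wild type (WT) at 2 months (4 libraries), WT at 11 months (3 libraries) and Tet2KO at 2 months (3 libraries). Tet2KO stands for a knockout of Tet2, an enzyme that oxidises 5-methylcytosine; the labels give no further detail of the allele and do not say which libraries came from separate animals. The labels differ on the input, 10 oocytes per sample in one place and a single oocyte in another. Each group's libraries were pooled in 1 deposited table, so every level below is 1 value per group with no spread between libraries.

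Superoxide dismutases turn superoxide into hydrogen peroxide, Sod1 in the cytosol, Sod2 in the mitochondrial matrix and Sod3 outside the cell. Catalase, glutathione peroxidases and peroxiredoxins then remove hydrogen peroxide and lipid peroxides, the glutathione peroxidases with glutathione and most peroxiredoxins with thioredoxin. Oocytes hold many mitochondria and can wait for long periods before ovulation, and their antioxidant enzymes are studied in relation to reproductive ageing. In oocytes, methylation is laid down mostly within transcribed gene bodies, and CpG-rich starts of active genes usually stay unmethylated.

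The sequences just before 4 of the starts are shown because these genes had the highest levels in WT at 2 months. They are RefSeq sequences on GRCm38.p6, the build that mm10 represents, 250 bases each, read 5′ to 3′ along the gene's strand up to the base before the start, with each CpG in capitals. Gpx1 lies on the plus strand (chr9:108338830-108339079), Prdx5 on the minus strand (chr19:6910107-6910356), and Sod1 (chr16:90220512-90220761) and Gpx3 (chr11:54902604-54902853) on the plus strand.
Gpx1: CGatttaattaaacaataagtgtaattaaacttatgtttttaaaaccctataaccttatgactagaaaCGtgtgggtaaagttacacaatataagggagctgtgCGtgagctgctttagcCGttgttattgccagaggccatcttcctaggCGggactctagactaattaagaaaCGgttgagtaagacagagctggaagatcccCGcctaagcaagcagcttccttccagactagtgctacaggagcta
Prdx5: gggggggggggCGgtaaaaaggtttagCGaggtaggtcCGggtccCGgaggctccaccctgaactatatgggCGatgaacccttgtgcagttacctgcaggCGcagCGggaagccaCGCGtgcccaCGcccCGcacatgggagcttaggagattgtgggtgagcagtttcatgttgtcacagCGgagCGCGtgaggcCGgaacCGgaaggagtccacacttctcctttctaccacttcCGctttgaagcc
Sod1: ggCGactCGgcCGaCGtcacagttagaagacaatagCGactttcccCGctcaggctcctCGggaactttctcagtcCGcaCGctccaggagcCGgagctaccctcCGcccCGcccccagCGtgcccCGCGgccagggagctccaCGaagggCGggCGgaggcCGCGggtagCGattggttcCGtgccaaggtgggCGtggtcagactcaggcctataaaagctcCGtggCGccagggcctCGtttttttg
Gpx3: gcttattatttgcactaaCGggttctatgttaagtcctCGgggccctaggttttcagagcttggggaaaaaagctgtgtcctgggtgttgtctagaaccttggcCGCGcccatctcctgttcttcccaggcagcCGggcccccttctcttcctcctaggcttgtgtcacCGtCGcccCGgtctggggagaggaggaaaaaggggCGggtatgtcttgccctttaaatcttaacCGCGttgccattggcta

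The 4 stretches differ in CpG content, with 7 CpGs in that of Gpx1, 11 in Gpx3, 17 in Prdx5 and 26 in Sod1. RefSeq start sequences of 300 bases (250 before the start and 50 from it) were held for 9 of the 10 genes, in 12 entries. Sod1 had 34 CpGs in its 300 bases, and 93.0% of 32817 such sequences had as many or fewer. Gpx1 had 11, where 60.4% had as many or fewer. The core letters of the antioxidant response element, TGACNNNGC, which factors such as Nfe2l2 bind, were searched on both strands. They were found in 2 of the 12 entries, Sod1 and Prdx1, and in 12.4% of all sequences. The GC box GGGCGG was found in 11 of 12 entries and in 35.6% of all sequences, again on either strand. The motifs were searched separately, so a base could belong to both.

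The level of a window is the share of its CpG calls that were methylated. Bisulfite does not separate methylcytosine from hydroxymethylcytosine, so a level covers both forms. The median shared window held 131 calls in WT at 2 months, 245 in WT at 11 months and 79 in Tet2KO, from 9392359, 16993859 and 5464356 nuclear calls in the tables, which can count a call in several overlapping windows. Gene windows of the 10 enzymes held 21 to 1149 calls. Intervals are 95% intervals, Wilson for a level and Newcombe for a difference, and they cover counting error only, since calls on the same read or from PCR copies are not independent. Maternally imprinted starts, which are methylated in eggs, had medians of 96.1%, 95.8% and 94.0% in WT at 2 and 11 months and in Tet2KO over the 8 of 10 genes with a window. Medians were 7.14%, 1.93% and 1.58% over 5 of 7 cumulus and granulosa genes, and 1.75%, 2.27% and 0% over 6 of 7 oocyte genes. The highest level was 97.5%, 94.0% and 93.3% among the cumulus and granulosa genes, with 1 gene over 80% in each pool. Among the oocyte genes it was 15.8%, 8.11% and 17.6%. The 4 sperm chromatin genes were at 65.6% to 84.2% in WT at 2 months, 0.971% to 16.2% in WT at 11 months and 0% to 10.7% in Tet2KO. Promoter methylation does not measure expression and does not check the Tet2 genotype.

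Apart from Gpx1 in WT at 2 months, the antioxidant enzyme windows carried little or moderate methylation in every group. With 1 window per gene, the one whose smallest pool held the most calls, levels ran from 0% to 76.0% in WT at 2 months, from 0.61% to 17.0% in WT at 11 months and from 1.26% to 19.0% in Tet2KO. At 11 months 9 of the 10 genes were lower than in WT at 2 months and 1 was higher, where 48.5% of 18380 named genes were lower. In Tet2KO 9 were lower and 1 higher than in WT at 2 months, where 54.3% of named genes were lower. These counts take a difference of any size. Among the lower genes, Sod2, Cat and Prdx2 had intervals that hold 0 at 11 months, and Cat, Gpx3 and Prdx2 in Tet2KO. The interval of Sod3, the higher gene, held 0 in both. The median difference over the genes was -5.65 percentage points (points below) at 11 months and -5.52 points in Tet2KO, against 0 and -0.335 over named genes. Both comparisons use the same 2-month WT pool, so they are not independent of each other. Without Gpx1, 8 of 9 genes were lower in each, and 7 of 9 by the deposited fraction. With Gpx1, 8 of 10 were lower by that fraction in each and 2 higher, Sod3 and Gpx3. Over the windows, which overlap, the medians were -2.84 and -4.88 points.

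**Figure D1:**
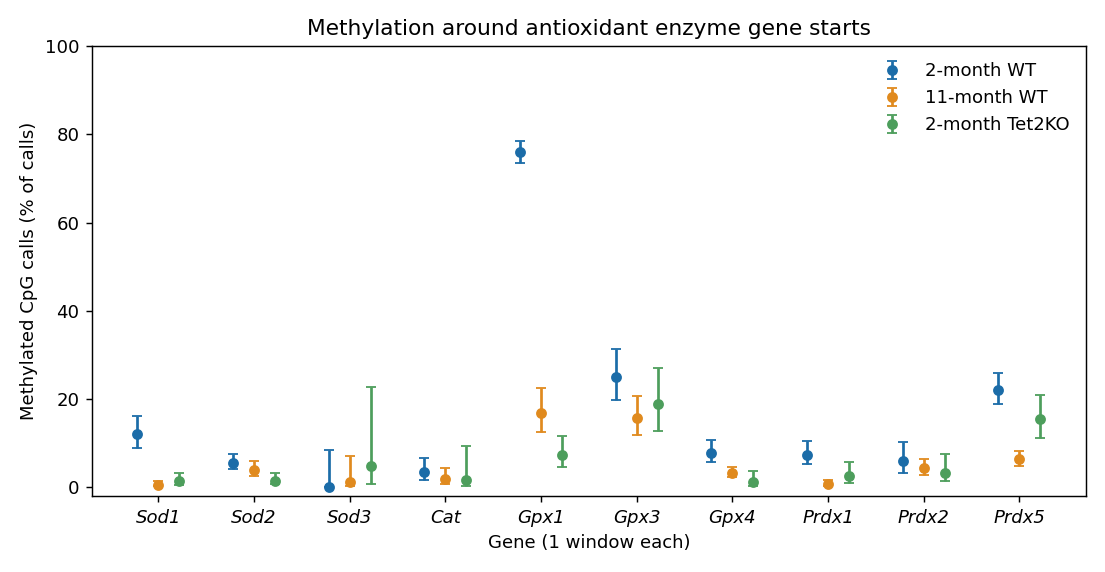
Methylation level (y axis, percent of CpG calls methylated) of 1 window for each of the 10 antioxidant enzyme genes (x axis) in the 3 pools; bars are 95% Wilson intervals, which cover counting error only. Gpx1 in WT at 2 months, at 76.0%, stands far above every other point, and the next highest are Gpx3 and Prdx5 in the same pool, at 25.1% and 22.2%.

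A difference of 20 points or more was seen at the 3 windows of Gpx1 alone, which overlap and share most of their calls. They were lower at 11 months (3 of 19 windows, against 2.76% of all windows) and lower in Tet2KO (3 of 19, against 3.22%). Without Gpx1, 0 of 16 windows were that far apart in either comparison. No window of these enzymes was higher by 20 points, where 2.78% of all windows were at 11 months and 3.29% in Tet2KO. Between Tet2KO and 11-month WT 0 of 19 windows were 20 points apart, where 2.09% of all windows were higher in Tet2KO and 1.94% lower.

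**Figure D2:**
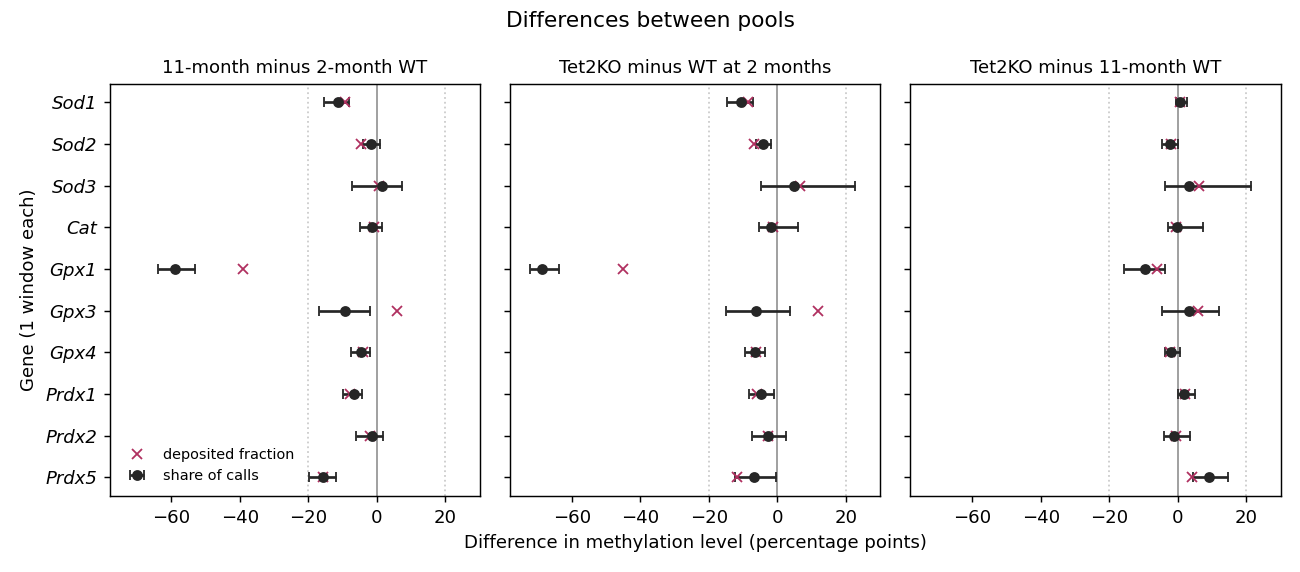
Difference in level (x axis, percentage points) for each gene (y axis) in the 3 comparisons; dots are differences in the share of calls with 95% Newcombe intervals, crosses are differences in the deposited fraction, and dotted lines mark 20 points. Gpx1 lies far to the left in both comparisons with 2-month WT, at -59.0 and -68.7 points, and Gpx3 changes side between the measures.

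Among the superoxide dismutases, Sod1 had the highest level in WT at 2 months. Its window (chr16:90219742-90221741) was at 12.0% of 316 calls in WT at 2 months (8.89 to 16.1), 0.61% of 656 calls in WT at 11 months (0.24 to 1.56) and 1.37% of 364 calls in Tet2KO (0.59 to 3.17). The interval of 2-month WT does not overlap those of the other pools, which are both near 0. The difference was -11.4 points at 11 months (-15.5 to -8.14) and -10.7 points in Tet2KO (-14.8 to -7.03). Between Tet2KO and 11-month WT it was 0.764 points (-0.47 to 2.60), an interval that holds 0. By the deposited fraction, which weights each covered CpG position equally, Sod1 was at 10.1%, 0.89% and 1.65%, in the same order.

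Sod2 (chr17:13006839-13008838), the mitochondrial enzyme, was at 5.59% of 751 calls in WT at 2 months, 3.85% of 493 in WT at 11 months and 1.54% of 389 in Tet2KO. The pools thus stepped down in that order, but the age difference of -1.74 points had an interval that holds 0 (-4.07 to 0.79). In Tet2KO the difference from 2-month WT was -4.05 points (-6.11 to -1.77), and from 11-month WT -2.31 points (-4.56 to -0.06). By the deposited fraction Sod2 was at 9.30%, 4.64% and 2.56%, and the differences from 2-month WT were larger, -4.65 points at 11 months and -6.74 in Tet2KO. Sod3 (chr5:52362791-52364790), the secreted enzyme, had few calls: 0 of 41 were methylated in WT at 2 months, which allows a level of up to 7.32% by the limit of 3 counts (Wilson upper bound 8.57%), 1 of 75 in WT at 11 months and 1 of 21 in Tet2KO. Sod3 was the gene counted as higher in both comparisons, by 1.33 points (-7.30 to 7.17) and 4.76 points (-4.66 to 22.7). Both intervals hold 0, and the depth cannot show a difference of this size. Sod3 had no RefSeq start in the table used and was placed by the end of its gene that a window meets.

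Catalase, which breaks down hydrogen peroxide without a cofactor such as glutathione, had 2 windows with equal counts. The Cat window (chr2:103484161-103486160) was at 3.46% of 231 calls in WT at 2 months, 1.89% of 265 in WT at 11 months and 1.75% of 57 in Tet2KO. The levels lay close together, and all 3 differences had intervals that hold 0: -1.58 points at 11 months (-4.97 to 1.41), -1.71 in Tet2KO (-5.24 to 6.02) and -0.132 between Tet2KO and 11-month WT (-2.98 to 7.48).

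Gpx1, the cytosolic glutathione peroxidase that reduces hydrogen peroxide, held the largest differences of the 10 genes. In its window with the most calls (chr9:108338276-108340275), 873 of 1149 calls were methylated in WT at 2 months, 38 of 224 in WT at 11 months and 16 of 219 in Tet2KO. The levels were 76.0% (73.4 to 78.4), 17.0% (12.6 to 22.4) and 7.31% (4.55 to 11.5). The 2-month WT pool was thus high, and the other pools were low. The difference was -59.0 points at 11 months (-64.0 to -53.0) and -68.7 points in Tet2KO (-72.3 to -63.7). Tet2KO was also below 11-month WT, with a difference of -9.66 points (-15.8 to -3.59), a comparison that does not use the 2-month WT pool.

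The extra calls of the 2-month WT pool at Gpx1 were mostly methylated ones. Unmethylated calls numbered 276, 186 and 203 in WT at 2 and 11 months and in Tet2KO, while methylated calls numbered 873, 38 and 16. The window held 14.0 calls per covered position in WT at 2 months, where the median window held 2.80 and 99.8% of windows held as many or fewer. It held 2.73 in WT at 11 months and 2.84 in Tet2KO, where the medians were 4.24 and 2.04. The part of this depth in the difference was not tested. With each covered position weighted equally, the deposited fraction was 53.3%, 14.2% and 8.18%, and the differences from 2-month WT were -39.1 and -45.2 points. The share of calls exceeded the fraction by 22.6 points in WT at 2 months, and 99.9% of windows had an excess as large or smaller. Positions with more calls were therefore on average more methylated in that pool.

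Overlapping windows placed most methylated calls of the 2-month WT pool inside the gene. A further listed window, centred 807 bp before the Gpx1 start and so outside the 200 bp limit, was at 29.8% of 84 calls in WT at 2 months (21.0 to 40.2), 45.9% of 74 in WT at 11 months (35.1 to 57.2) and 18.4% of 38 in Tet2KO (9.22 to 33.4). There 11-month WT was the highest pool, and the window contains the sequence printed above. The window centred 27 bp before the start held 920, 202 and 201 calls. Only its last 780 bp (chr9:108339274-108340053) lie outside the upstream window. In 2-month WT at least 836 of the 920 calls, and at least 650 of the 675 methylated ones, therefore lie in this stretch, from base 195 to base 974 counted from the start as 1, within the Gpx1 gene (chr9:108339080-108340342). For the other pools the minimum was 0 of 33 methylated calls in 11-month WT and 6 of 13 in Tet2KO. The counts bound the level of the stretch between 72.6% and 78.4% in WT at 2 months, 0% and 20.4% in WT at 11 months and 3.09% and 7.65% in Tet2KO. These bounds do not overlap between 2-month WT and the other pools. They assume that a call is counted in every window holding its position; of 1189 pairs of windows that start 1 to 5 bp apart, 93.9% had the same methylated and total calls in WT at 2 months.

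**Figure D3:**
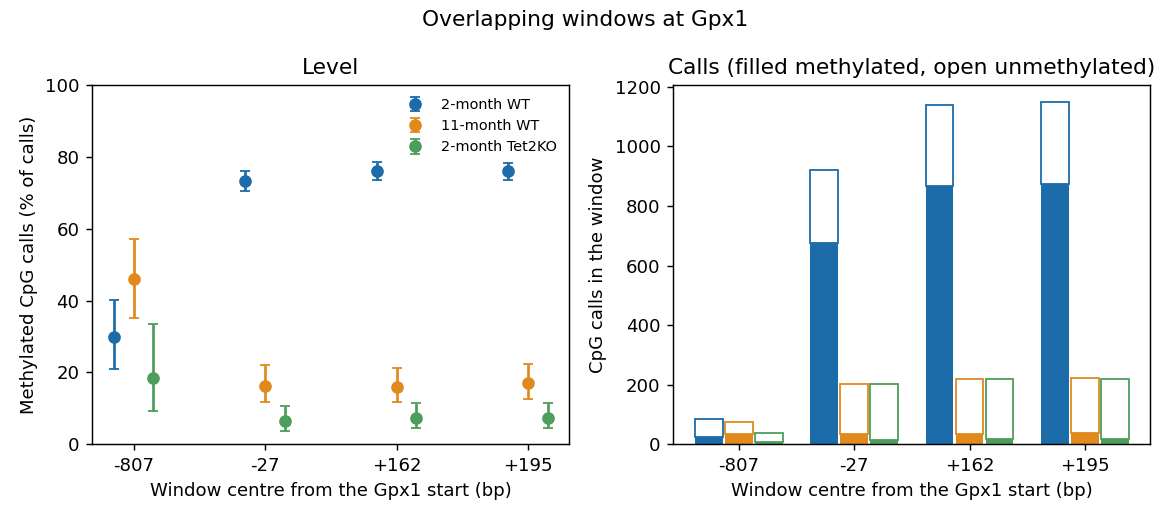
Levels with 95% Wilson intervals (left, percent of CpG calls methylated) and CpG calls (right, filled methylated and open unmethylated) of the overlapping Gpx1 windows by the distance of their centre from the start (x axis, bp; windows are 2000 bp long). In 2-month WT the methylated calls number 25 in the upstream window and 675 in the next, while the other pools hold 7 to 38 methylated calls in every window.

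Named genes whose levels in the 3 pools were nearest to those of Gpx1 were sought among 9122 genes with at least 100 calls in every pool. The 5 nearest were Itga5, Sap18b, Dapk3, Fth1 and Rps29, at 14.3 to 28.3 points of Euclidean distance over 3 values. Itga5 was at 67.5%, 23.1% and 17.1% in WT at 2 and 11 months and in Tet2KO, and Fth1 at 57.7%, 1.62% and 1.32%. Calls per position in WT at 2 months were 1.75 at Itga5, 4.17 at Dapk3 and 4.74 at Sap18b. They were 13.0 at Fth1 and 140.9 at Rps29, against 14.0 at Gpx1. Rps29 was at 98.9% of 12819 calls in that pool, and at 42.6% by the deposited fraction. The part of depth in these levels was not tested.

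Gpx3, the glutathione peroxidase secreted into extracellular fluid, was at an intermediate level in all pools. Its window (chr11:54901772-54903771) was at 25.1% of 207 calls in WT at 2 months (19.7 to 31.4), 15.8% of 253 in WT at 11 months (11.8 to 20.8) and 19.0% of 116 in Tet2KO (12.9 to 27.0). By share of calls the difference from 2-month WT was -9.31 points at 11 months (-16.8 to -1.94) and -6.16 points in Tet2KO (-14.9 to 3.58). By the deposited fraction the order turned, at 17.8%, 23.7% and 29.7%, so that 11-month WT was 5.86 points higher and Tet2KO 11.9 points higher than 2-month WT. The direction of Gpx3 relative to 2-month WT thus turned with the measure, while Tet2KO was above 11-month WT by both, by 3.16 points (-4.73 to 12.2) and 6.01 points, the former with an interval that holds 0.

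Gpx4, which reduces lipid peroxides in membranes, was low, and its WT levels were higher in the downstream of its windows. The window centred 78 bp before a start (chr10:80052488-80054487) was at 7.88% of 482 calls in WT at 2 months (5.80 to 10.6), 3.30% of 880 in WT at 11 months (2.30 to 4.69) and 1.26% of 239 in Tet2KO (0.43 to 3.62). The difference was -4.59 points at 11 months (-7.51 to -2.08) and -6.63 in Tet2KO (-9.50 to -3.47). In the window centred 25 bp after another Gpx4 start, further downstream, levels were 12.0%, 9.16% and 1.36%. There the age difference of -2.84 points had an interval that holds 0 (-6.41 to 0.43), and the difference in Tet2KO was -10.6 points (-13.9 to -7.01). The 549 bp gained between these windows (chr10:80054488-80055036) added at least 22 methylated calls in WT at 2 months and at least 56 in WT at 11 months, while Tet2KO held 3 methylated calls in both windows. Covered positions went from 115 to 125, from 117 to 130 and, in Tet2KO, from 100 to 95, so Tet2KO gained no covered positions on balance. How far coverage set the low Tet2KO level of the second window was not tested.

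Prdx5, a peroxiredoxin found in mitochondria, peroxisomes and the cytosol, had the highest level in every pool among Prdx1, Prdx2 and Prdx5. Its window (chr19:6909164-6911163) was at 22.2% of 519 calls in WT at 2 months (18.8 to 25.9), 6.38% of 878 in WT at 11 months (4.94 to 8.19) and 15.4% of 214 in Tet2KO (11.2 to 20.9). The 11-month pool was low, and the intervals of the 2-month pools overlap. The difference was -15.8 points at 11 months (-19.8 to -12.0) and -6.74 in Tet2KO (-12.4 to -0.34), and Tet2KO lay 9.04 points above 11-month WT (4.44 to 14.7). The deposited fractions were 28.3%, 12.49% and 16.6%, in the same order, with Tet2KO 4.16 points above 11-month WT. The window also holds the start of Trmt112, a cofactor of methyltransferases, so its level belongs to both genes.

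Tet2KO differed between overlapping windows along Prdx5. A window centred 489 bp downstream of the Prdx5 start and named for Trmt112 was at 18.0%, 4.29% and 5.17% in WT at 2 and 11 months and in Tet2KO. There Tet2KO lay near 11-month WT, whereas at the Prdx5 window it lay between the WT pools. The 546 bp gained between them (chr19:6910618-6911163), from 512 to 1057 bp upstream of Prdx5, added at least 24 methylated calls in Tet2KO, of 33 in the whole Prdx5 window. In 11-month WT the stretch added at least 19 of 56, and in WT at 2 months at least 30 of 115.

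Prdx1 and Prdx2, cytosolic peroxiredoxins, were low in all pools. Prdx1 (chr4:116684544-116686543) was at 7.42% of 391 calls in WT at 2 months (5.21 to 10.4), 0.70% of 572 in WT at 11 months (0.27 to 1.78) and 2.54% of 197 in Tet2KO (1.09 to 5.80). Its difference was -6.72 points at 11 months (-9.78 to -4.26) and -4.88 in Tet2KO (-8.24 to -0.94). The 2-month WT pool was again the highest, as at Sod1. A window centred 287 bp after the Prdx1 start, outside the 200 bp limit, gave 7.32%, 0.69% and 2.51%, and the outermost window kept, at 195 bp, was that of Gpx1 described above. Both Prdx1 windows also hold a start of AV051173, so their levels belong to both genes.

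Prdx2 had 5 overlapping windows, whose levels ran from 0.63% to 5.95% in WT at 2 months, from 1.35% to 4.38% in WT at 11 months and from 1.42% to 3.36% in Tet2KO. In WT at 2 months the level was 0.63% in the window centred 182 bp before the start and 5.95% of 185 calls in that centred 144 bp after it (chr8:84968767-84970766). The latter was at 4.38% of 502 calls in WT at 11 months and 3.36% of 149 in Tet2KO. The 3 pools lay close together, and the differences of -1.56 points (-6.19 to 1.81) at 11 months and -2.59 (-7.38 to 2.40) in Tet2KO had intervals that hold 0. A further window, centred 616 bp after the Prdx2 start and so outside the 200 bp limit, had another order. It was at 7.07% in WT at 2 months (4.18 to 11.7), 8.95% in WT at 11 months (6.75 to 11.8) and 4.86% in Tet2KO (2.37 to 9.69). There 11-month WT was the highest pool, and the intervals overlap.

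Gpx1, Gpx3 and Prdx5 took the first 3 places in every pool, and the order below them was mostly unresolved. In 2-month WT Gpx1 exceeded Gpx3 by 50.9 points (44.0 to 56.8), Gpx3 and Prdx5 differed by 2.96 points (-3.64 to 10.1), and Prdx5 exceeded Sod1 by 10.1 points (4.87 to 15.0). Below Sod1 came Gpx4, Prdx1, Prdx2, Sod2, Cat and Sod3, and each interval between neighbours held 0. In 11-month WT Gpx1 and Gpx3 came first with an interval that holds 0 (-5.47 to 7.91), and Gpx3 exceeded Prdx5 by 9.43 points (5.06 to 14.6). In Tet2KO the order was Gpx3, Prdx5 and Gpx1, and Prdx5 exceeded Gpx1 by 8.11 points (2.14 to 14.2). Sod1 was the fourth gene in WT at 2 months, the last in WT at 11 months and the ninth in Tet2KO.

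Between Tet2KO and 11-month WT, which differ in both age and genotype, 5 of the 10 genes were higher in Tet2KO and 5 lower, where 56.8% of named genes were lower. The median difference over the genes was 0.316 points, against -0.396 over named genes, and over the 19 windows it was -1.03. The range over the genes ran from -9.66 points at Gpx1 to 9.04 at Prdx5. By the deposited fraction it ran from -6.05 points at Gpx1 to 6.07 at Sod3, which had few calls. In the downstream Gpx4 window, which did not stand for its gene, the difference was -7.80 points (-10.0 to -4.72). It was -14.7 points there by the deposited fraction. At Prdx1 Tet2KO was higher by 1.84 points (0.03 to 5.13).

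Depth per position stood apart at Gpx1 in WT at 2 months and less so elsewhere. Sod2 held 7.29 calls per position in WT at 2 months, where 99.5% of windows held as many or fewer, at a level of 5.59%. Gpx3 held 5.31 and Prdx1 5.21, where 96.4% and 95.9% of windows held as many or fewer. Sod1 was at the median of 2.80, where 49.9% of windows held as many or fewer. It held 5.66 in WT at 11 months and 3.28 in Tet2KO, where 71.8% and 92.0% of windows held as many or fewer. The medians of those pools were 4.24 and 2.04. The part of depth in the level of Sod1 was not tested.

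**Figure D4:**
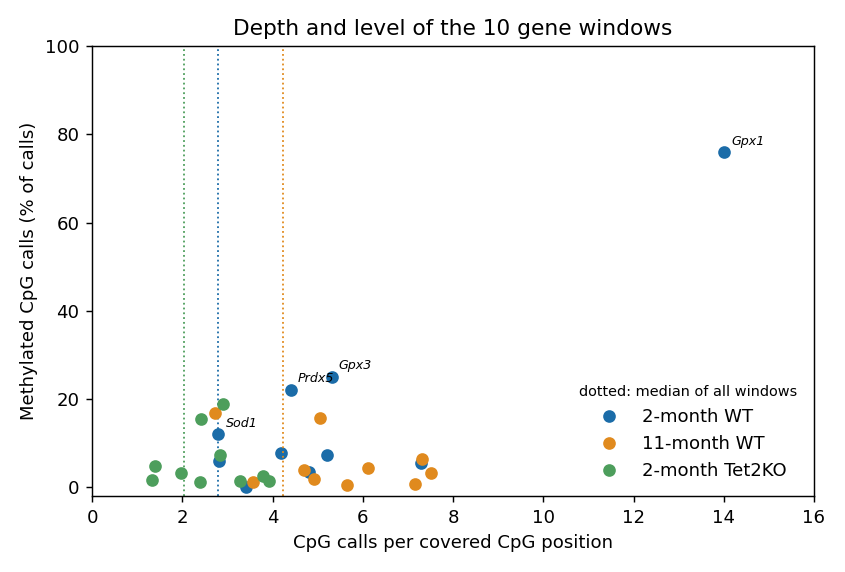
Level (y axis, percent of CpG calls methylated) against CpG calls per covered CpG position (x axis) for the 10 gene windows in each pool, with the median depth of all shared windows as dotted lines; 4 genes are named in WT at 2 months. Gpx1 in WT at 2 months lies alone at 14.0 calls per position and 76.0%, and every other point lies under 8 calls per position.

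Other genes of redox metabolism were counted in 5 lists of 64 genes, of which 59 had a shared window; G6pdx, Hmox2, Cybb, Nox1 and Xdh had none. At 1 window per gene, median differences at 11 months were -0.658 points for 8 other glutathione peroxidases and peroxiredoxins and -2.79 for 11 genes of the thioredoxin and glutaredoxin system. They were -1.33 for 12 genes of glutathione synthesis and recycling, -0.148 for 21 regulators and partners and -0.159 for 7 producers of superoxide or hydrogen peroxide. In Tet2KO the medians were -0.295, -2.05, -0.939, -0.713 and -0.995, in the same order. Over named genes the medians were 0 at 11 months and -0.335 in Tet2KO. Lower genes outnumbered higher ones by 8 to 3 in the thioredoxin and glutaredoxin list and by 8 to 4 in the glutathione list, in both comparisons with 2-month WT. The other glutathione peroxidases and peroxiredoxins stood at 4 lower, 3 higher and 1 equal in both. By the deposited fraction that list had 3 lower and 4 higher in Tet2KO. The producers stood at 4 lower and 3 higher in both comparisons. Of 18380 named genes, 8918 were lower and 8911 higher at 11 months, and 9985 were lower and 7050 higher in Tet2KO. By the deposited fraction the glutathione list turned in Tet2KO, to 4 lower and 8 higher, and the thioredoxin and glutaredoxin list stood at 6 lower and 5 higher at 11 months. Among regulators and partners 11 were lower and 10 higher at 11 months, and 15 were lower and 4 higher in Tet2KO. By the deposited fraction the majority of that list turned at 11 months, with 9 lower and 12 higher, and in Tet2KO 13 were lower and 6 higher. By that measure 8610 named genes were lower and 9224 higher at 11 months, and 10061 were lower and 6987 higher in Tet2KO.

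Of these 59 genes at 1 window each, only Gstp1 was 20 points apart at 11 months, and it was higher. In Tet2KO Gstp1, Txn2 and Gpx6 were higher than in 2-month WT by that much, and Gpx5 was lower. Txn2 and Gpx6 were also that much higher in Tet2KO than in 11-month WT. Among 18380 named genes, 375 were higher and 442 lower by 20 points at 11 months, and 454 and 514 in Tet2KO. Between Tet2KO and 11-month WT 310 were higher and 245 lower. Gstp1, a glutathione transferase that detoxifies electrophiles, went the opposite way to Gpx1: it was at 11.2% of 134 calls in WT at 2 months (6.90 to 17.6), 57.7% of 142 in WT at 11 months (49.5 to 65.6) and 68.9% of 74 in Tet2KO (57.7 to 78.3). Its deposited fractions were 10.5%, 66.9% and 65.1%. Gstp1 has a closely similar neighbour, Gstp2, and how reads matching both were treated is not known here. Mt1, a metallothionein that binds zinc and scavenges radicals, resembled Gpx1 in 2 of its windows. In the window centred 151 bp after its start it was at 32.4% of 336 calls in WT at 2 months, 3.14% of 382 in WT at 11 months and 0.68% of 147 in Tet2KO, while its deposited fraction in WT at 2 months was 13.9%. The difference of Mt1 is thus under 20 points by that measure. Txn2, the mitochondrial thioredoxin, was at 10.6% of 104 calls, 6.63% of 196 and 31.6% of 19 (15.4 to 54.0) in WT at 2 and 11 months and in Tet2KO. Its deposited fractions were 7.01%, 4.58% and 23.1%, so Txn2 too was under 20 points from either WT pool by that measure. Gpx5 and Gpx6, glutathione peroxidases of the epididymis and of the olfactory lining, rested on 11 calls in Tet2KO. Gpx6 was at 36.4% there (15.2 to 64.6), against 0% of 17 calls in WT at 2 months, and Gpx5 at 9.09% (1.62 to 37.7), against 29.4% of 17 calls.

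**Figure D5:**
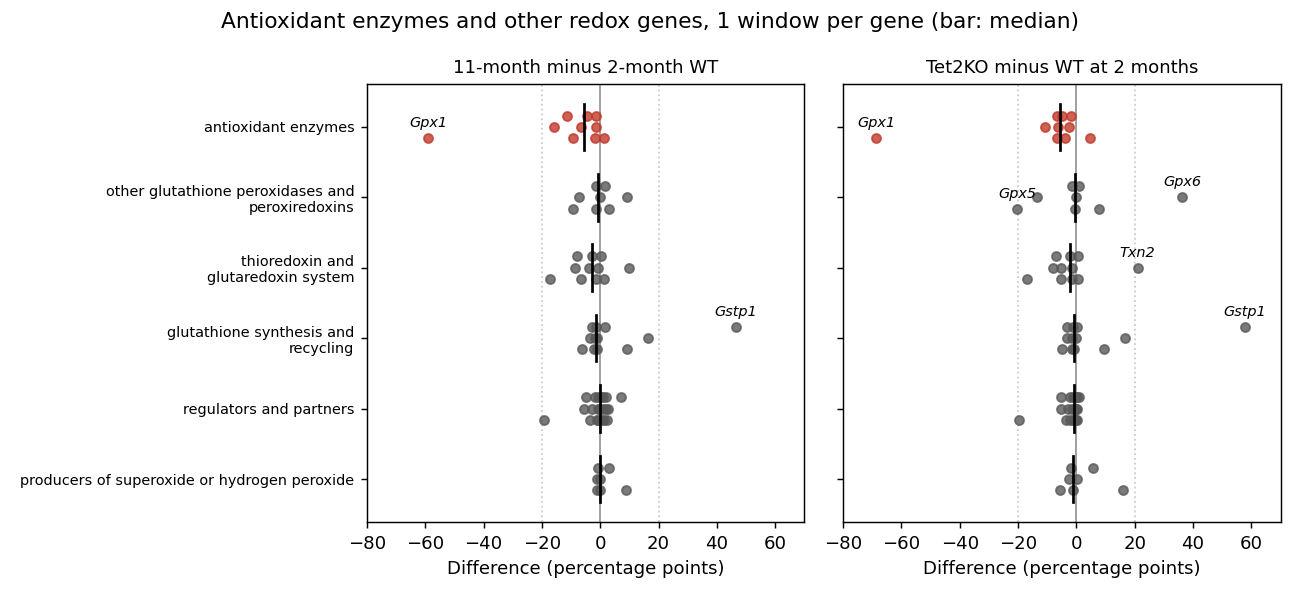
Differences from 2-month WT (x axis, percentage points) in WT at 11 months (left) and Tet2KO (right) for the antioxidant enzymes and 5 lists of other redox genes (y axis); each dot is 1 gene at 1 window, black bars are list medians and dotted lines mark 20 points. Most genes lie near 0, Gpx1 lies far to the left at -59.0 and -68.7 points, and Gstp1 far to the right at 46.6 and 57.7 points.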

How the data were processed

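Bisulfite libraries of MII oocytes were compared between 3 groups. The submitters' processing notes list Trimmomatic, Bismark (version field 12.5) and mm10 but give them no role. How reads were filtered and libraries combined was not given in the sources read. The authors deposited, per window, counts of methylated CpG calls, coverage (all CpG calls) and the number of covered CpG positions; unmethylated calls were taken as the difference of the first 2. The deposited fraction is, from its values, a mean over covered positions of the methylated share. Listed windows held at least 10 calls and 5 positions. An incomplete final line in the table of WT at 2 months was dropped.

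Levels (100 times methylated over all calls) were computed with Python 3.11.15 and pandas 2.3.3 over nuclear windows listed in all 3 pools. Windows were named from RefSeq starts on GRCm38.p6 within 200 bp, or, for a gene with no start in that table, from the gene end that had a window. Where a gene had several windows, the one whose smallest pool held most calls stood for it. The design foresaw no test for pooled values, so no p-value is given. The interval code was tested on simulated independent calls, so the test does not cover calls that share a read or a PCR copy. The 10 genes were fixed as named; of other lists, values are given for genes 20 points apart, and for Mt1, which passed in further windows only. Members, lists and thresholds were chosen with earlier results of these data known. Alternatives changed the measure, coverage minimum, windows per gene, distance and threshold.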

Additional observations from a re-analysis of the deposited data

How the results depend on the processing

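The 3 windows 20 points apart from 2-month WT, at 11 months and in Tet2KO alike, all belong to Gpx1. Their number was 1 with 1 window per gene, 1 with window centres within 50 bp of a start and 0 without Gpx1, an alternative chosen after seeing the data. At a threshold of 10 points it was 6 for age, in overlapping windows of Gpx1 and Prdx5 and that of Sod1. For Tet2KO it was 5, in the windows of Gpx1, that of Sod1 and the downstream one of Gpx4. The share of all windows past 10 points was not counted, so these counts have nothing to be compared with. At 20 points the number stayed at 3 by the deposited fraction, with at least 50 calls, with at least 20 covered positions and within 500 bp. The median over windows was negative under all 7 alternatives in both comparisons with 2-month WT, from -5.65 to -1.66 points for age and from -6.39 to -3.23 for Tet2KO. Between Tet2KO and 11-month WT the median of -1.03 points became 0.316 with 1 window per gene. Of 30 differences of single genes, 1 whose interval excluded 0 turned by the deposited fraction, that of Gpx3 with age (5.86 points), and 6 more left their interval. With the window nearest to the start, also chosen after seeing the data, 2 of 30 left it. No paired analysis was possible because each deposited table holds 1 pooled value per group, and for the same reason no library could be left out. Depth limits Sod3 most, with 21 to 75 calls per pool.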
